A study of Mus musculus with 6 samples.

Results

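The genes described here, Ntrk2, Ntrk3, Ngfr, Ret, Gfra1, Gfra2, Gfra3 and Gfra4, encode receptors for neurotrophins and for ligands of the glial cell line-derived neurotrophic factor (GDNF) family. They were taken by symbol from the deposited count tables, are 8 of 32719 genes, and all 8 passed the filter on low counts. The ligands are secreted proteins that keep sensory neurons alive during development and shape their fibres and excitability afterwards. Neurotrophins act through Trk receptor tyrosine kinases and through Ngfr, the p75 receptor, which binds all of them and also the uncleaved precursors. GDNF family ligands first bind a GFR-alpha protein anchored in the outer membrane leaflet, and the pair then engages the receptor tyrosine kinase Ret.

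RNA came from the jugular-nodose ganglia, the cell bodies of the vagal sensory nerve, in 6 libraries. Titles assign 3 libraries to a control group and 3 to a treated group. Male wild-type C57BL/6J mice had osmotic pumps placed under the skin that delivered PBS, or PBS with S961 at 10 nmol per week, for 2 weeks, per the labels' protocol. S961 is a peptide that blocks the insulin receptor. The treatment field says S961 for all 6 libraries, so the assignment of PBS to controls rests on titles and protocol. The sources used here give neither the age of the mice nor whether a library came from 1 animal or a pool. P-values therefore measure the spread between these libraries, which may be technical.

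The libraries held 12898607 to 33522486 gene counts. Treated replicate 3, the smallest, stood apart, with correlations across 12197 genes of 0.920 to 0.944 with the others against 0.968 to 0.989 among those. The source and tissue fields read spinal cord, and the markers were checked against that. Prdm12, which defines jugular neurons, was at 45.8 ± 7.31 CPM in controls and 91.7 ± 29.1 CPM in the treated group (SD, n = 3). The nodose markers summed to 386 CPM or more in every library. The 10 listed markers of spinal cord and central glia summed to 11.5 to 15.5 CPM in controls and 13.9 to 16.1 CPM in treated libraries. Of these markers 3 passed the filter on low counts. At an unadjusted edgeR p under 0.05, 1 of the 3 was higher in treated libraries, where 4.00% of all tested genes were. The motor neuron gene Mnx1 summed to 2 counts in controls and 9 in treated libraries, and the glycine transporter gene Slc6a5 of spinal inhibitory neurons summed to 7 and 21. Fgf3, named in the study's title, summed to 7 and 110.

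Levels of different receptors were compared per length, as TMM-scaled CPM (read counts relative to the library's total, which is adjusted by a trimmed mean) for each kb of annotated exon. Ngfr led in every library, at 509.6 ± 11.6 CPM per kb in controls and 334 ± 111 among treated libraries (SD, n = 3). Ret followed at 77.6 ± 1.92 and 80.0 ± 10.9 CPM per kb. Ntrk2, the receptor of brain-derived neurotrophic factor, came next in controls at 42.0 ± 0.750 CPM per kb, and Gfra2, the neurturin receptor, followed it at 21.9 ± 2.18. Gfra1, the GDNF receptor, stood at 10.5 ± 0.646 CPM per kb. Gfra3, the artemin receptor, stood at 8.29 ± 1.53, Ntrk3, the neurotrophin-3 receptor, at 6.46 ± 1.12 and Gfra4, the persephin receptor, at 5.27 ± 0.839 in controls. From Ngfr down to Gfra3 the control ranges of neighbours did not overlap, while those of Gfra3 and Ntrk3 did, as did those of Ntrk3 and Gfra4.

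In treated libraries Gfra3 stood at 22.1 ± 8.80 CPM per kb, above Gfra1 at 11.9 ± 1.95 and Ntrk3 at 8.33 ± 0.887 in all 3 of them. Gfra2 at 27.7 ± 6.90, Ntrk2 at 27.4 ± 8.78 and Gfra3 overlapped with their neighbours in that order. Gfra4 was again lowest, at 3.95 ± 0.205 CPM per kb. Ntrk2 and Ntrk3 have 10 and 20 annotated transcripts, some of which encode short receptors without a kinase, and gene counts pool these forms. With the longest transcript as the length, the control level of Ntrk2 was 92.6 CPM per kb, next to 96.2 for Ret. In that scale Ntrk3 passed Gfra3 in controls, at 9.89 against 8.29, and Ntrk2 at 60.4 stood above Gfra2 at 28.2 in treated libraries.

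**Figure D1:**
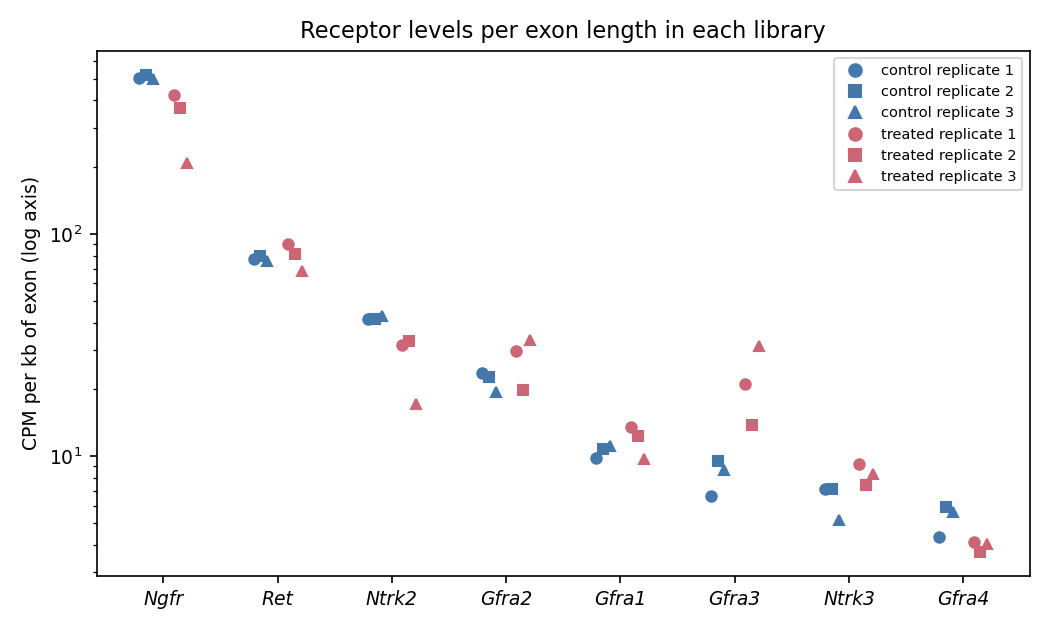
Each point is 1 library, the vertical axis gives CPM per kb of exon on a log scale, and genes are ordered by their control mean. Ngfr lies highest in all 6 libraries, and the treated points of Gfra3 lie above its control points.

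The comparison of treated with control libraries asks which transcripts of the vagal ganglia differ after S961 infusion. Among the receptors, Gfra3 was 2.65-fold higher in treated libraries, Ntrk3 was 1.29-fold higher, and Ntrk2, Ngfr and Gfra4 stood at 0.652, 0.655 and 0.750 of control. With edgeR's quasi-likelihood test 0 of the 8 passed an adjusted p of 0.05, where 0% of the 16019 tested genes did. The smallest adjusted p over all genes was 0.179. DESeq2's Wald test called 1 of the 8, Gfra3, as higher, where it called 0.406% of genes as higher, and limma-voom called 0 genes. At an unadjusted edgeR p under 0.05, 2 of the 8 were higher, where 4.00% of all tested genes were, and 3 were lower, where 2.67% of all were. The count of 3 lower varied with the library left out. It was 0 without control replicate 2 or control replicate 3, and 1 without control replicate 1 or treated replicate 2. Without treated replicate 1 it was 2. With 1 control left out, the log2 fold change was -0.63 to -0.60 for Ntrk2, -0.62 to -0.60 for Ngfr and -0.54 to -0.33 for Gfra4. The SE of each was larger in those fits than with all libraries. The count of 2 higher was 1 without control replicate 3 or treated replicate 1, and 3 without treated replicate 2. For 2 receptors every treated library lay above every control (7.07% of all genes), and for 3 every treated library lay below (7.63% of all genes). The median log2 fold change was 0.11 over the 8 and 0.02 over all tested genes. With 3 libraries against 3, an exact permutation test cannot give a p below 0.1.

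**Figure D2:**
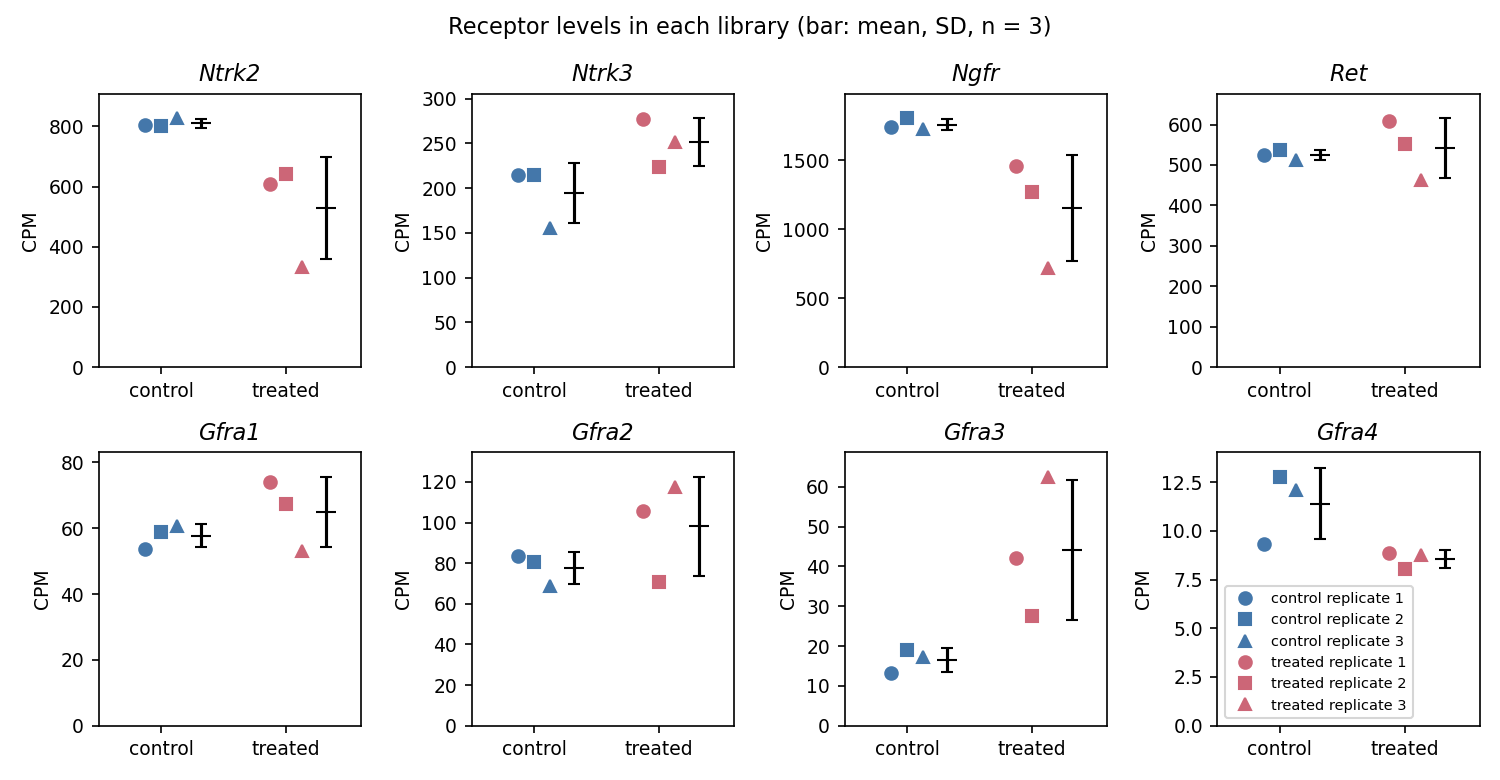
Each panel shows 1 receptor gene, with its level in CPM for each library and the mean and SD of 3 libraries beside the points. The treated points of Gfra3 and Ntrk3 lie above their control points, those of Ntrk2, Ngfr and Gfra4 lie below, and those of Ret, Gfra1 and Gfra2 overlap.

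Ntrk2 (ENSMUSG00000055254, chromosome 13, 58806569 to 59133970, plus strand, GRCm38) was at 804, 799.6 and 827 CPM in control replicates 1, 2 and 3 and at 609.8, 641 and 333 CPM in treated replicates 1, 2 and 3. The controls lay within a narrow band and every treated library lay below it, treated replicate 3 by the most. The log2 fold change was -0.62 ± 0.23 (SE), at an unadjusted edgeR p of 0.0311 (adjusted 0.727), and the exact permutation test gave 0.1. Without treated replicate 3 the log2 fold change was -0.37 ± 0.07, at an edgeR adjusted p of 0.110. Both remaining treated libraries then still lay below all controls.

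Ngfr (ENSMUSG00000000120, chromosome 11, 95568818 to 95587735, minus strand) encodes a receptor with a death domain that can also pair with Trk receptors and raise their affinity. Its levels were 1739.95, 1802 and 1727 CPM in the controls and 1459.9, 1271 and 722 CPM in the treated libraries. As for Ntrk2, all treated libraries lay below all controls and treated replicate 3 was lowest. Its log2 fold change of -0.61 ± 0.24 (SE) had an unadjusted edgeR p of 0.0370 and an adjusted p of 0.737. Without treated replicate 3 it was -0.36 ± 0.08, at an edgeR adjusted p of 0.176. The profiles of Ngfr and Ntrk2 ran close. Relative to the control mean, the log2 level of Ngfr was -0.27, -0.47 and -1.28 in treated replicates 1, 2 and 3, and that of Ntrk2 was -0.41, -0.34 and -1.28.

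The bases just upstream of the outermost annotated start sites of Ntrk2 and Ngfr are shown, a choice made after their profiles had been seen. RefSeq's promoter table (GRCm38.p6) matched 4 of the 8 receptors by symbol: Ntrk2, Ngfr, Gfra1 and Gfra4. Each run below is read 5′ to 3′ on the gene's strand and ends before the outermost annotated start. Capitals mark matches on either strand to the GC box GGGCGG and to the E-box CANNTG, which do not overlap here. The Ntrk2 run covers chr13:58806319-58806568 (plus strand, 250 bases) and the Ngfr run covers chr11:95587736-95587948 (minus strand, 213 bases).
Ntrk2: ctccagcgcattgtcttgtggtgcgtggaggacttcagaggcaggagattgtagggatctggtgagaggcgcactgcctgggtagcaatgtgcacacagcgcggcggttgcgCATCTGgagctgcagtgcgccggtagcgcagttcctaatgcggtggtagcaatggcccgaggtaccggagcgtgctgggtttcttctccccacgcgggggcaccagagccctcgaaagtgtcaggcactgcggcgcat
Ngfr: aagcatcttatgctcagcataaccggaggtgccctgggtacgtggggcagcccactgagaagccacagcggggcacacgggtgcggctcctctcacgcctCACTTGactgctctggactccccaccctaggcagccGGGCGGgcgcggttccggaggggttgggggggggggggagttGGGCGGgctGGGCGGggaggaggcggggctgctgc
Ngfr held 3 GC boxes and 1 E-box, and Ntrk2 held 0 and 1. Over all 32851 promoters of the table, 32.7% of 250-base windows and 27.4% of 213-base windows held a GC box, while 66.2% and 61.1% held an E-box. The GC content was 62.8% for Ntrk2 and 70.9% for Ngfr, against medians of 52.4% and 51.6% over windows of those lengths. Neither window held the TATA box TATAAA, the CCAAT box CCAAT or the cyclic AMP response element TGACGTCA. These matches describe letters only.

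Ntrk3 (ENSMUSG00000059146, chromosome 7, 78175959 to 78738012, minus strand) stood on the other side. In the controls it was at 214, 214 and 156 CPM, and in the treated libraries at 278, 224 and 252 CPM. The groups did not overlap, but treated replicate 2 lay only 9.55 CPM above the highest control. Its log2 fold change was 0.37 ± 0.15 (SE), at an unadjusted edgeR p of 0.0401 and an adjusted p of 0.737. Control replicate 3 was the low value, and without it the log2 fold change was 0.23, at an unadjusted edgeR p of 0.127. The log2 ratio of Ntrk3 to Ntrk2 per kb was -2.72 ± 0.292 in controls and -1.66 ± 0.566 in the treated group (SD, n = 3), without overlap, and the difference of 1.05 was 0.75 without treated replicate 3. The log2 ratio of Ngfr to the sum of Ntrk2 and Ntrk3 was 3.39 ± 0.0302 in controls. In treated replicates 1, 2 and 3 it was 3.38, 3.18 and 3.03, so replicate 1 lay within the control range.

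Ret (ENSMUSG00000030110, chromosome 6, 118151745 to 118197718, minus strand), the kinase shared by all GFR-alpha proteins, differed little. It was at 525, 538 and 512 CPM in the controls and at 609, 553 and 462 CPM in the treated libraries. Treated replicates 1 and 2 lay above the controls and treated replicate 3 below them. The log2 fold change was 0.05 ± 0.12 (SE), at an unadjusted edgeR p of 0.715. It was -0.06 when treated replicate 1 was left out and 0.15 when treated replicate 3 was, so its sign depended on which library was left out.

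Gfra1 (ENSMUSG00000025089, chromosome 19, 58235604 to 58455909, minus strand) was at 53.8, 58.8 and 60.7 CPM in the controls and at 74.2, 67.4 and 53.2 CPM in the treated libraries. Treated replicate 3 was the lowest of all 6 libraries, while the other treated libraries lay above the controls. The log2 fold change of 0.17 ± 0.13 (SE) was 0.29 ± 0.09 without treated replicate 3, at an unadjusted edgeR p of 0.00860 and an adjusted p of 0.381. Without treated replicate 1 it was 0.05, at an unadjusted edgeR p of 0.701. The log2 ratio of Gfra1 to Ret per kb stayed in a narrow band, from -2.98 to -2.77 in controls and from -2.81 to -2.73 in treated libraries. An exon of Gfra1 overlaps the gene Gm16277 on the other strand. The deposited counts hold no gene of the symbol Gm16277, and the strand setting of the counting is not given. Any reads of Gm16277 therefore cannot be told apart from those of Gfra1.

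Gfra2 (ENSMUSG00000022103, chromosome 14, 70890120 to 70979838, plus strand) was at 83.5, 80.6 and 68.9 CPM in the controls and at 106, 70.7 and 118 CPM in the treated libraries. Treated replicate 2 lay among the controls and the other treated libraries lay above them. The log2 fold change was 0.33 ± 0.19 (SE), at an unadjusted edgeR p of 0.114. Leaving out treated replicate 3 gave 0.18, and leaving out treated replicate 2 gave 0.51 at an unadjusted edgeR p of 0.00396. With limma-voom and sample weights it was 0.07, at an unadjusted p of 0.663.

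Gfra4 (ENSMUSG00000027316, chromosome 2, 131039632 to 131043088, minus strand) was at 9.34, 12.8 and 12.1 CPM in the controls and at 8.87, 8.05 and 8.75 CPM in the treated libraries. All treated libraries lay below all controls, treated replicate 1 by 0.476 CPM. The log2 fold change was -0.42 ± 0.17 (SE), at an unadjusted edgeR p of 0.0434 and an adjusted p of 0.737, and it was -0.43 without treated replicate 3. The microRNA gene Mir6973b lies within Gfra4 on the same strand and had 0 to 34 counts per library, where Gfra4 had 110 to 332.

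Gfra3 (ENSMUSG00000024366, chromosome 18, 34689898 to 34720387, minus strand) differed most among the receptors. It is known from nociceptors, neurons that sense harmful stimuli, and in the vagal ganglia it marks neurons of the jugular part. Control replicates 1, 2 and 3 held 230, 497 and 257 reads of it, and the treated replicates held 1415, 790 and 786. Its scaled levels were 13.2, 19.1 and 17.4 CPM in the controls and, in the same order, 42.1, 27.5 and 62.5 CPM in the treated libraries. The lowest treated library, replicate 2, lay 8.40 CPM above the highest control. The log2 fold change was 1.40 ± 0.30 (SE), at an unadjusted edgeR p of 0.00251 (adjusted 0.587), and the exact permutation test gave 0.1. By p, Gfra3 ranked 67 of the 16019 tested genes. The Wald test of DESeq2 on the same genes gave a log2 fold change of 1.40 at an adjusted p of 0.00146. Over all alternatives the adjusted p of Gfra3 ran from 0.00146 to 0.995. Leaving out 1 library at a time gave log2 fold changes from 1.07, without treated replicate 3, to 1.64, without treated replicate 2.

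**Figure D3:**
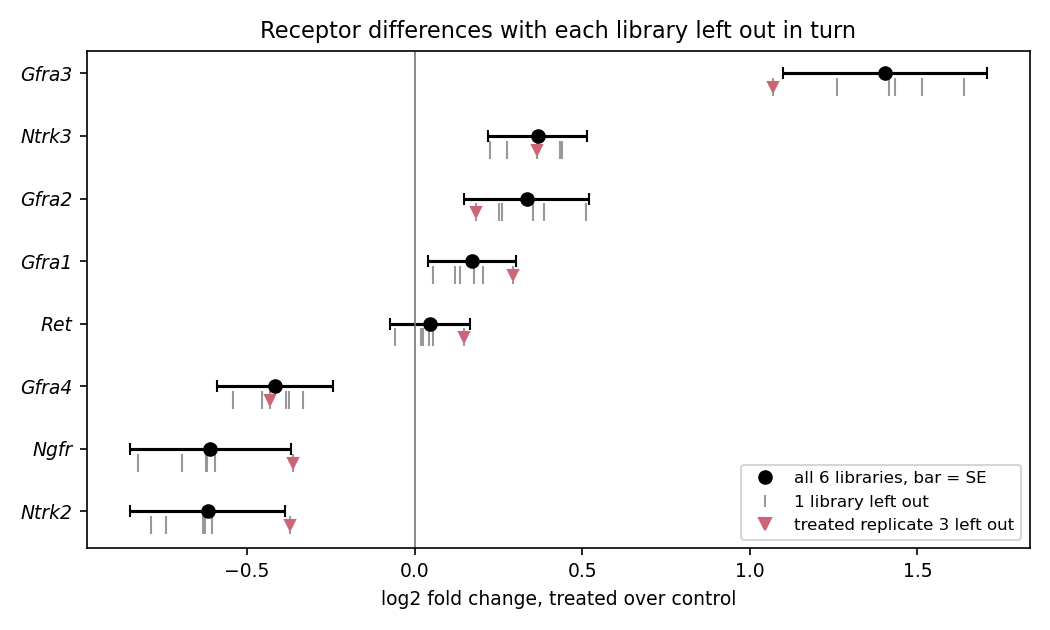
The horizontal axis gives the log2 fold change of treated over control, black points with bars show the edgeR estimate and its SE from 6 libraries, and grey ticks show the estimates with 1 library left out. Gfra3 lies between 1.07 and 1.64 in all of them, and without treated replicate 3 (red triangles) Ntrk2 and Ngfr move to -0.37 and -0.36.

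In the make-up of the GFR-alpha transcripts, the groups did not overlap for the shares of Gfra3 and Gfra4 and overlapped for those of Gfra1 and Gfra2. The share of Gfra3 in the summed CPM per kb of Gfra1 to Gfra4 was 14.9%, 19.5% and 19.4% in control replicates 1, 2 and 3, against 30.7%, 27.7% and 40.0% in the treated replicates. The difference in means was 14.9 percentage points, or 11.3 without treated replicate 3. The share of Gfra4 was 9.73% to 12.5% in controls and 5.16% to 7.47% in treated libraries, a difference of -5.21 points. Gfra2 held the largest share in every library, with 47.7% ± 5.0 in controls and 42.1% ± 1.74 in the treated group (SD, n = 3), a difference of -5.66 points, or -2.91 without control replicate 1, and the ranges met between 43.4% and 43.6%. Gfra1 held 22.9% ± 1.55 and 19.0% ± 6.19, a difference of -3.98 points that came to -0.704 when treated replicate 3 was left out and to -6.86 when treated replicate 2 was. The shares add up to a whole, so a higher share of Gfra3 lowers the others. The levels of Gfra2 and Gfra1 themselves had positive log2 fold changes, 0.33 ± 0.19 and 0.17 ± 0.13 (SE). The log2 ratio of Gfra3 to Ret per kb was -3.56, -3.05 and -3.12 in control replicates 1, 2 and 3, against -2.09, -2.57 and -1.13 in the treated replicates. These shares and ratios are descriptions of the 8 receptors and were not tested.

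**Figure D4:**
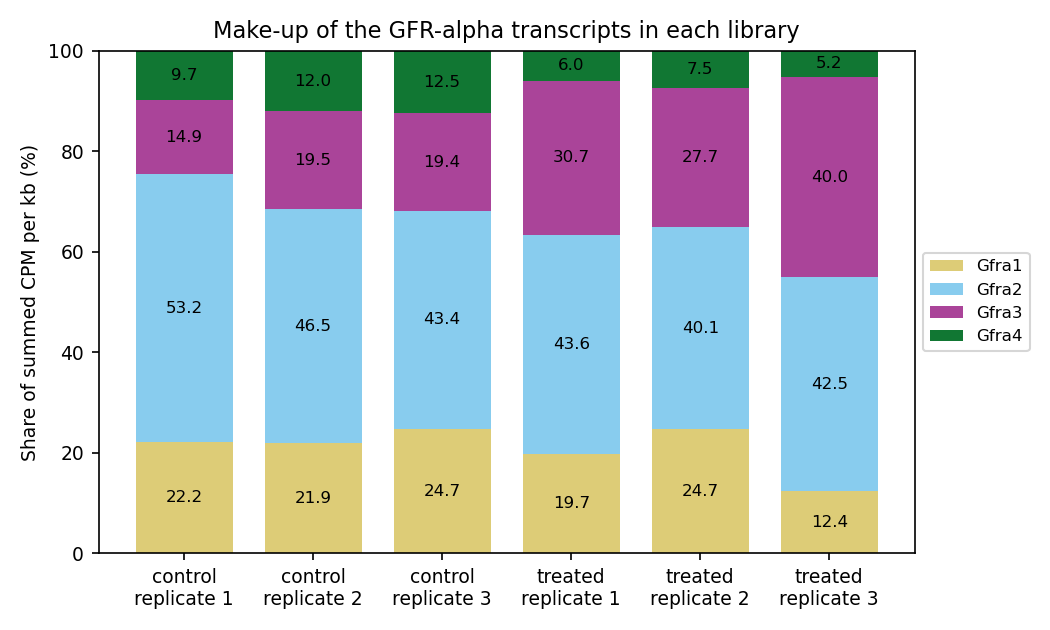
Bars show, for each library, the share in percent of Gfra1, Gfra2, Gfra3 and Gfra4 in their summed CPM per kb of exon. Gfra3 takes 14.9% to 19.5% in the controls and 27.7% to 40.0% in the treated libraries.

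Marker lists of the ganglion's cell types were read beside the receptors, with the receptors themselves left out of them. In bulk RNA, fewer cells of a type and less RNA per cell cannot be told apart. Of 9 tested jugular markers 8 had positive log2 fold changes and of 11 nodose markers 0 had, where 8454 of 16019 tested genes had. The medians were 0.88 and -0.81, or 0.68 and -0.53 without treated replicate 3. No gene of either list passed an edgeR adjusted p of 0.05. At an unadjusted p under 0.05, 7 jugular markers were higher, where 4.00% of all tested genes were. At the same threshold 5 nodose markers were lower, where 2.67% of all were. DESeq2 called 3 jugular markers higher (Prdm12, Runx1 and Trpm8), where it called 0.406% of genes as higher. It called 2 nodose markers lower (Glp1r and Gpr65), where it called 24 of 16019 genes as lower. The mean log2 level of the jugular list minus its control mean was 0.93, 0.20 and 1.02 in treated replicates 1, 2 and 3, where Gfra3 was at 1.36, 0.75 and 1.93. On the same scale the nodose list was at -0.56, -0.48 and -1.60, the order in which Ntrk2 also stood. The summed jugular markers were at 2354 to 2621 CPM in controls and 2491 to 3193 in treated libraries. Most of that sum came from Nefh and Scn10a, with control means of 1223 and 1063 CPM. Their log2 fold changes were 0.04 and -0.05, so the sum says little of the other jugular markers. The summed nodose markers were at 1164 to 1243 CPM in controls and 386 to 841 in treated libraries. Their part in the receptor differences was not tested.

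Ngfr and Ntrk2 are also transcribed by glia, the short form of Ntrk2 in particular. The 9 satellite glia markers summed to 2622 to 3625 CPM in controls and 3062 to 3877 CPM in treated libraries. Of these 9, 6 had positive and 3 negative log2 fold changes, Fabp7, Kcnj10 and S100b being the negative ones. The median was 0.20, from 0.09 without control replicate 1 to 0.39 without control replicate 2. The 8 markers of myelinating Schwann cells summed to 1133 to 1818 CPM in controls and 1391 to 2162 CPM in treated libraries. Their median was 0.55, with 0.35 without control replicate 1, 0.34 without treated replicate 2 and 0.88 without control replicate 2. Sox10, which defines both kinds of glia, was at 0.39 ± 0.27 (SE). Markers of repair Schwann cells, a state in which Ngfr is known to be abundant, had a median of 0.21 over 6 tested genes, which was 0.54 without control replicate 2 and 0.07 without control replicate 3, with Jun, which neurons express too, at 0.93 ± 0.18. No gene of these glial lists passed an edgeR adjusted p of 0.05. At an unadjusted p under 0.05, 1 satellite glia marker, 1 myelin marker and 2 repair markers were higher, where 4.00% of all tested genes were. DESeq2 called 1 of these markers, Jun, as higher, where it called 0.406% of genes as higher. The part of glia in the Ngfr and Ntrk2 differences was not tested.

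Sympathetic neurons, which carry Ret and Ngfr as well, can be caught in the dissection. Of 7 tested markers of sympathetic neurons and glomus cells every log2 fold change was negative, where 7565 of 16019 tested genes had a negative one. At an unadjusted edgeR p under 0.05, 2 were lower, where 2.67% of all tested genes were, and 0 passed adjustment. DESeq2 called 1 of the 7, Ddc, as lower, where it called 24 of 16019 genes as lower. The median of these markers was -0.78, and -1.19 without treated replicate 1. They summed to 367 to 383 CPM in controls and to 340, 333 and 213 CPM in treated replicates 1, 2 and 3. Most of that sum came from Chga, with a control mean of 246 CPM. Its log2 fold change was -0.18 ± 0.17 (SE), so the sum says little of the other markers. Dbh, which makes noradrenaline, was at -1.87 ± 0.65 and Th, which makes its precursor, at -0.43 ± 0.19 (SE). Pan-neuronal genes summed to 5261 to 5537 CPM in controls and to 5641, 5355 and 4314 CPM in the treated libraries. Their median of -0.05 became -0.13 on leaving out treated replicate 1 and 0.04 on leaving out treated replicate 3. Treated replicate 3, the library with the lowest Ngfr and Ntrk2 and the highest Gfra3, also held the most fat cell markers (445 CPM, against 1.90 to 48.3 in the others). Its macrophage markers summed to 377 CPM and its neutrophil markers to 46.6 CPM, against at most 103 and 12.7 elsewhere, and its fibroblast markers to 1861 CPM against at most 983. Of its gene counts 11.3% came from small RNA genes, against 4.42% to 7.05% in the others, and 46.6% of its reads were assigned to a gene, the lowest share of the 6. The median of the macrophage markers was 1.34, and 0.08 without that library. Their part was not tested, and the values without that library are given beside each receptor or in the account of all 8 without it.

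**Figure D5:**
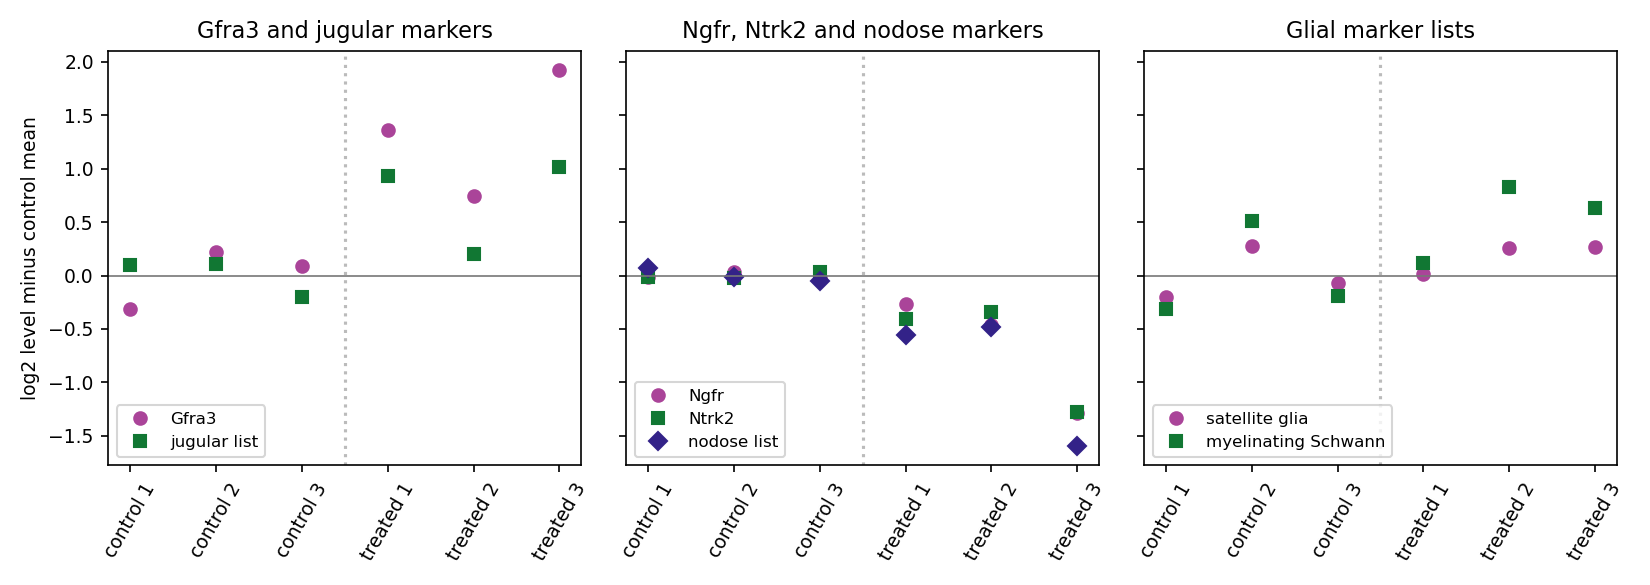
The vertical axis gives log2 levels minus the control mean for each of 6 libraries, for single receptors and for the mean of marker lists. Gfra3 and the jugular list lie above 0 in all treated libraries. Ngfr, Ntrk2 and the nodose list lie below 0 in them, with the lowest values in treated replicate 3. The glial lists overlap between the groups. Their treated points lie above 0, for satellite glia at only 0.01 in treated replicate 1. Control replicate 2 lies at 0.28 for satellite glia and at 0.51 for myelinating Schwann cells.

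Neuronal injury was read through Atf3, a transcription factor of damaged neurons, since injury is known to alter these receptors in sensory ganglia. Atf3 was at 6.65, 7.23 and 4.19 CPM in the controls and 37.4, 77.4 and 61.4 CPM in the treated libraries. Of 8 injury genes 0 passed an edgeR adjusted p of 0.05. At an unadjusted p under 0.05, 7 were higher, where 4.00% of all tested genes were. DESeq2 called 6 of the 8 as higher, where it called 0.406% of genes as higher. Among the treated libraries Atf3 was highest in replicate 2, where Gfra3 was lowest, while Sox11, another injury gene of the list, was at 33.4, 60.6 and 70.7 CPM and highest in replicate 3, as was Gfra3. Over all 8 injury genes, the mean log2 level minus its control mean was 1.74, 2.61 and 2.38 in treated replicates 1, 2 and 3. The part of injury in the receptor differences was not tested.

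The ligands themselves were scarce in the ganglia, apart from Bdnf. Bdnf, the ligand of Ntrk2, was at 38.4 ± 2.81 CPM in controls and 42.7 ± 9.34 CPM in the treated group (SD, n = 3), a log2 fold change of 0.15 ± 0.16 (SE). Nrtn, which encodes neurturin, the ligand of Gfra2, had 13 to 17 counts per control library, and 9, 11 and 1 in treated replicates 1, 2 and 3. All its treated levels lay below the controls in CPM, and its log2 fold change of -1.57 ± 0.65 had an unadjusted edgeR p of 0.0425 that did not pass adjustment. Gdnf, the ligand of Gfra1, had 16 to 29 counts per control library, 47 and 42 in treated replicates 1 and 2, and 0 in treated replicate 3, where 0 allows up to 0.239 CPM.

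Ntf3, the ligand of Ntrk3, summed to 14 counts in controls and 40 in treated libraries and was below the filter. Artn, the ligand of Gfra3, had 13 and 12 counts, Ntf5, a second ligand of Ntrk2, had 1 and 3, and Gdf15, the ligand of the related receptor Gfral, had 4 and 2. Pspn, the ligand of Gfra4, had 0 counts in all 6 libraries, which allows up to 0.0225 CPM over the series. Gfral summed to 2 and 6 counts. Of the 9 ligands 4 were tested and 0 passed an edgeR adjusted p of 0.05 in either direction. At an unadjusted p under 0.05, 1 ligand was lower, where 2.67% of all tested genes were. DESeq2 called 0 ligands. These limits cover counting error only.

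Among 16 other receptors and co-receptors, 15 were tested and 0 passed an edgeR adjusted p of 0.05 in either direction. At an unadjusted p under 0.05, 1 was higher, where 4.00% of all tested genes were, and DESeq2 called 0. Rtn4r, the Nogo receptor, which can pair with Ngfr, stood at a log2 fold change of 0.69 ± 0.34 (SE), and Sorl1, a sorting receptor, at 0.24 ± 0.12. Their unadjusted edgeR p-values were 0.0773 and 0.0912, and the groups overlapped for both. The median of this list was 0.23, or 0.15 with treated replicate 3 left out and 0.14 with treated replicate 1 left out.

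Of 27 adaptor and signalling genes used by Trk receptors and Ret, 14 had positive and 13 negative log2 fold changes, the median was 0.01 (-0.05 to 0.02 with 1 library left out) and 0 passed an edgeR adjusted p of 0.05. At an unadjusted p under 0.05, 2 were higher and 2 lower, where 4.00% and 2.67% of all tested genes were, and DESeq2 called 0. Dok4, a docking protein that binds Ret, was at 88.7 ± 6.24 CPM in controls and 141 ± 39.9 in treated libraries, a log2 fold change of 0.67 ± 0.20 (SE) without overlap. The adaptors Shc1 and Grb10 differed by less, at -0.20 ± 0.08 and 0.24 ± 0.10, and their groups did not overlap. Of 8 tested genes for proteases that cleave neurotrophin precursors or activate such proteases, 0 passed in edgeR or DESeq2. At an unadjusted edgeR p under 0.05, 1 of the 8 was lower, where 2.67% of all tested genes were. The median of the protease genes was 0.24, or 0.10 without treated replicate 3 and 0.13 without control replicate 1. Pcsk1, a prohormone convertase, was at -0.55 ± 0.16, with all treated libraries below the controls, and Pcsk6 was at 0.86 ± 0.47. Plg, which encodes plasminogen, had 428 counts in treated replicate 1 and 2 to 25 in the other libraries.

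Of 22 genes known to respond to neurotrophin or GDNF signalling in neurons or elsewhere, 18 were on the positive side and 0 passed an edgeR adjusted p of 0.05. The median log2 fold change was 0.40, and 0.17 without treated replicate 3. Of all 16019 tested genes 8454 were on the positive side. At an unadjusted p under 0.05, 5 of the 22 were higher and 1 was lower, where 4.00% and 2.67% of all tested genes were. DESeq2 called 1 of the 22, Vgf, as higher, where it called 0.406% of genes as higher. Vgf, a secreted neuropeptide precursor, was at 0.63 ± 0.14, and Tac1, the substance P precursor, at 0.88 ± 0.24 (SE). Etv1, a transcription factor that neurotrophin-3 induces in proprioceptors, was at 184 ± 17.7 CPM in controls and 105 ± 32.6 in treated libraries, a log2 fold change of -0.81 ± 0.23. Tac1, Mrgprd and Scn10a are also in the jugular list, so 2 of the 5 higher genes, Tac1 and Mrgprd, are jugular markers.

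The genes most like the 3 most variable receptors were found by the root-mean-square difference of their log2 levels over the 6 libraries, each centred on its own mean, among 11816 genes of at least 5 CPM. Libraries share depth and make-up across genes, so likeness over 6 of them is a description. For Gfra3 the nearest were the transcription factor gene Bcl11b at a difference of 0.24, Tafa1, which encodes a secreted protein, at 0.27 and Calca, the gene for the peptide CGRP, at 0.28. For Ngfr they were the granin gene Scg2 at 0.04, Hoxb2, a patterning gene, at 0.04 and the potassium channel gene Kcnk18 at 0.05. For Ntrk2 they were the kisspeptin receptor gene Kiss1r at 0.03, the diacylglycerol kinase gene Dgkb at 0.03 and the Wnt receptor gene Fzd5 at 0.05.

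Without treated replicate 3 the picture over the 8 receptors was partly different. At an unadjusted edgeR p under 0.05, Gfra3 and Gfra1 were then higher, where 3.63% of 16747 tested genes were, and Ntrk2, Ngfr and Gfra4 were lower, where 4.31% were. Ntrk3 had an unadjusted edgeR p of 0.0882 in that fit. Again 0 of the 8 passed an adjusted p of 0.05, the smallest being 0.110 for Ntrk2.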

How the data were processed

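The deposited files hold raw exonic read counts per gene, 1 file per library, for 6 libraries. The submitters' processing notes name bcl2fastq 2.20, STAR 2.7.7a, DESeq2, edgeR and build mm10. For the counting program, the annotation release and whether strand was used: not given in the sources used here. Per the labels' protocols, libraries came from roughly 6 ng of total RNA with a stranded kit for low input, the RNA integrity of the study's samples ran from 6.6 to 9.1, and reads were 100 bp. Of 32719 genes, 32663 matched GENCODE M21 (GRCm38, the build mm10 denotes), the source of exon lengths and coordinates.

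Counts were fitted with edgeR 4.0.16 (R 4.3.3): filterByExpr with a minimum count of 10, TMM scaling, a robust quasi-likelihood F test of treated against control, and Benjamini-Hochberg adjustment over 16019 genes. The SE is the log2 fold change divided by the square root of F. Log2 levels used a prior count of 2. Exact permutation tests are two-sided on these log2 levels. The fit was tested on simulated data.

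The receptors and gene lists were chosen with earlier results of these data known. Named genes are all receptors and ligands, defining markers, up to 3 genes of a list by smallest p, and the 3 genes most like each of the 3 most variable receptors. Gfral, Trpm8, Fabp7, Kcnj10, S100b, Sox11, Mrgprd, Scn10a and Nefh were named after their values were seen. Some genes of this rule are not reported here. Lists are described by counts and medians, with no set test. Alternatives were 3 scalings, 2 filters, the replicate number as a block, DESeq2 1.42.0, limma 3.58.1 (voom with and without sample weights), small RNA genes left out, a threshold of 0.1, the longest transcript as length, and each library left out.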

Additional observations from a re-analysis of the deposited data

How the results depend on the processing

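With edgeR 0 of 16019 genes passed an adjusted p of 0.05, with 1068 at an unadjusted p under 0.05. The count was 26 with no filter on low counts, 89 with DESeq2, 8 with limma-voom and sample weights, and 1 with the replicate block, and it ran from 0 to 9 when 1 library was left out (7 without treated replicate 1, 9 without treated replicate 3). With no filter 27618 genes were tested, and the causes of the other differences were not tested. Gfra3 passed under 1 of 16 alternatives, DESeq2, with a log2 fold change of 1.40. Of the 8 receptors 7 kept their sign under all 16 alternatives. Ret did not, at -0.0585 without treated replicate 1, and its range with 1 library left out was -0.0585 to 0.15. No label says whether the replicate numbers pair the libraries. Deviations from the group means correlated at 0.01, 0.56 and 0.49 for numbers 1, 2 and 3. Across groups, the libraries numbered 2 and 3 correlated best with their own number, and those numbered 1 did not. Deviations within a group sum to 0 and so depend on each other, and they cannot settle pairing. With the block Gfra3 was at 1.34, Ntrk2 at -0.67 and Ngfr at -0.67, and no receptor passed. Depth limits the ligands below the filter, which had at most 18 counts in any library.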
